A study of Neodesmus pupukensis with 4 samples.

Results

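Among the transcripts of a green microalga followed through a shake-flask culture, 149 assembled sequences were both abundant and nearly level at all 4 culture times. They were chosen from the deposited values by 2 conditions, a read count averaging 1000 or more across the libraries and a highest RPKM at most 1.3 times the lowest. RPKM is the read count scaled by sequence length and by the library total that the file states. Of 14905 sequences in all, 2985 reached the read floor, and the 149 were 4.99% of these. The other 2836 abundant sequences are the set they are compared with below. The files give no gene name, function, base sequence or genome position for any identifier, so the members are described by identifier, length, level and component. Sequences whose identifiers begin alike form a component, which is how an assembler groups overlapping or alternative transcripts. The 149 members belonged to 88 components.

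The strain was UTEX2341, studied for its lipid. The sample labels give it as Neodesmus pupukensis and the series as a whole as Chlorella minutissima. Fed-batch cultures in shaken flasks at 25°C were harvested after 14, 45, 57 and 88 h. All 4 groups are the same strain and differ by culture time, and each is 1 library of total RNA. Whether the harvests came from 1 flask or several is not stated in the labels. Library totals ran from 11874560 to 12495251 reads. With 1 library per time there is no replicate check, intervals cover counting error only, and since the values chose the members no p-value is given.

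In a growing batch culture of algae, cells pass from rapid division to a phase in which nutrients run low, and oil-forming strains then store carbon as lipid. The cultures here were fed-batch, and whether they followed that course cannot be told from the read counts. Transcripts whose level changes little over a culture are often those of general upkeep, and some of them serve as internal standards in quantitative PCR. Sequencing measures each transcript as a share of its library. A level value therefore means a constant share of the sequenced RNA, which is not the same as a constant number of molecules per cell.

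The members covered a wide range of levels, with mean RPKM between 13.5 and 853.4 and a median of 46.3. The other abundant sequences had a median of 55.7 and reached 11474.5. In all, 22 members lay below 25 RPKM, 59 from 25 to 50, 47 from 50 to 100, 17 from 100 to 200 and 4 at 200 or above. The very high levels were thinly represented, since levels of 200 RPKM or more were found in 2.68% of the members and 14.7% of the other abundant sequences. Mean read counts were alike, at a median of 2016.8 reads for the members and 2016.2 for the other abundant sequences.

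The member with the highest level was comp170_c0_seq1, 1786 bases long and alone in its component. Its RPKM was 802.9, 770.8, 924.3 and 915.6 at 14, 45, 57 and 88 h. The 2 late libraries (57 and 88 h) lay above the 2 early ones (14 and 45 h), and the highest was 1.199 times the lowest (95% counting interval 1.175 to 1.224). That interval, the exact conditional binomial one, stays clear of 1, so this member was level within the limit but not within counting error.

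The member with the most reads was comp122_c0_seq1, of 8434 bases. It had 63353, 68352, 72984 and 56017 reads in time order, or 601.2, 682.5, 713.4 and 549.9 RPKM. It was highest at 57 h and lowest at 88 h, and with a ratio of 1.297 (1.283 to 1.312) it stood close to the limit. Its share of the library total was largest at 57 h, 0.602% (exact binomial 95% limits 0.597 and 0.606%), and smallest at 88 h, 0.464% (limits 0.460 and 0.468%). This sequence alone supplied 12.7% of the mean member reads, and the 10 members with the most reads supplied 33.6%.

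Another member at a high level, comp248_c0_seq1 of 1638 bases, had an RPKM of 550.1, 559.9, 557.5 and 489.1 at 14, 45, 57 and 88 h. The first 3 libraries were close together and the 88 h library was lower, with a ratio of highest to lowest of 1.145 (1.114 to 1.177). The fourth, comp236_c0_seq1 of 765 bases, had an RPKM of 225.8, 181.2, 220.3 and 206.7 in the same order. Here the 45 h library was the low one, and the ratio was 1.246 (1.168 to 1.329). Each of these 4 members thus departed from its own mean in a different way.

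**Figure D1:**
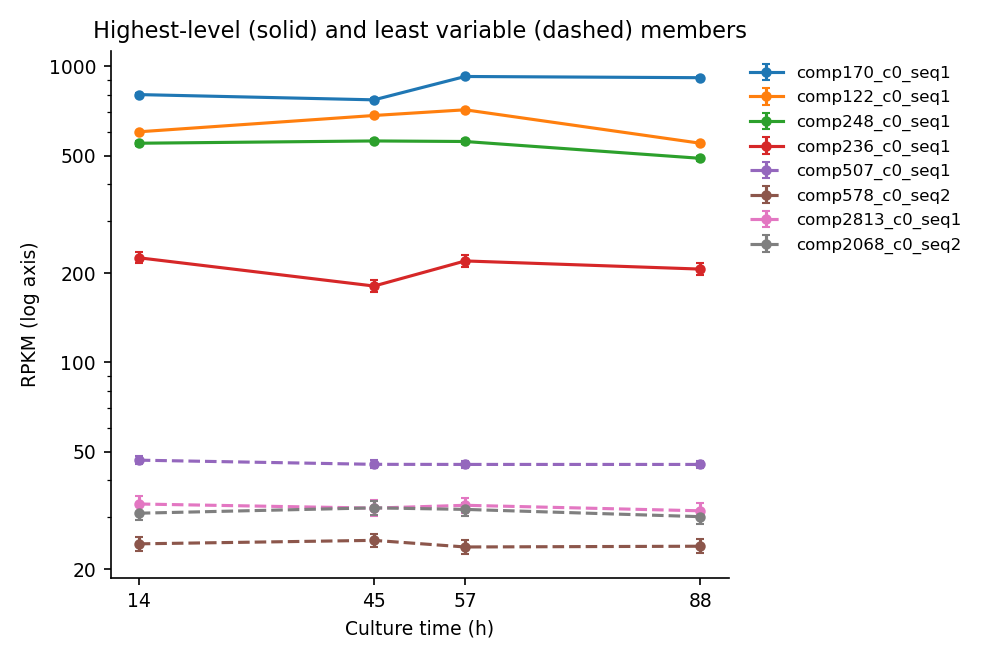
RPKM on a log axis against culture time for the 4 members with the highest mean RPKM (solid lines) and the 4 with the smallest ratio of highest to lowest RPKM (dashed lines), at most 1 per component. Points are single libraries and bars are 95% Poisson counting intervals. The solid lines run between 181.2 and 924.3 RPKM and the dashed ones between 23.8 and 46.8 RPKM.

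The most level member was comp507_c0_seq1, of 7864 bases. It had 46.8, 45.3, 45.3 and 45.3 RPKM in time order, from 4598, 4230, 4318 and 4299 reads. The 3 later libraries gave nearly the same value, and the ratio of highest to lowest was 1.034 (0.991 to 1.078). Next was comp578_c0_seq2, of 4744 bases, at 24.4, 25.1, 23.8 and 24.0 RPKM with a ratio of 1.053 (0.977 to 1.135). The third, comp2813_c0_seq1 of 2655 bases, stood at 33.3, 32.2, 32.9 and 31.6 RPKM, a ratio of 1.054 (0.967 to 1.149). The fourth, comp2068_c0_seq2 of 3630 bases, stood at 31.0, 32.3, 31.9 and 30.2 RPKM, a ratio of 1.071 (0.993 to 1.156). In these 4 sequences no library stood apart beyond counting error.

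So close a match was uncommon among the members. In 5 of the 149, the counting intervals of all 6 pairs of libraries held a ratio of 1. Among the other 2836 abundant sequences 0 met that condition, so the same 5 are the 0.168% of all abundant sequences that did. With so many reads, a match within counting error all but requires a ratio inside the limit. The contrast with the other abundant sequences thus follows largely from the rule. These 5 are the 4 sequences above and comp2551_c0_seq1, named here because it completes the count. The last, of 2016 bases and alone in its component, had 1179, 1189, 1163 and 1120 reads. For the other 144 the counting interval of at least 1 pair of libraries left out a ratio of 1. The intervals were not corrected for the 6 pairs looked at per sequence, so counting error alone can put a level sequence here. The 144 is therefore not a count of sequences that differed by more than counting error. Because highest and lowest were picked after the fact, their ratio overstates the spread of sequences with few reads.

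The limit of 1.3 fell on a smooth slope of ratios, with no gap between the members and the rest. Of the abundant sequences, 8 had a ratio of at most 1.1, 65 of at most 1.2, 149 of at most 1.3, 230 of at most 1.4 and 345 of at most 1.5. The median ratio was 1.22 among members and 2.81 among the other abundant sequences. In all, 69.2% of abundant sequences differed by 2-fold or more between some pair of libraries.

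The sequences at the border show how little separates the sides. Just inside the ratio limit, comp308_c0_seq2 had 114.2, 91.4, 118.7 and 106.4 RPKM at 14, 45, 57 and 88 h, and comp2047_c0_seq2 had 26.4, 21.1, 26.1 and 27.3. Both had their low point at 45 h. Just outside, comp200_c0_seq3 had 18.0, 19.1, 14.7 and 15.5 RPKM and comp1631_c0_seq1 had 18.9, 18.1, 22.8 and 23.5. The 4 ratios lay between 1.29897 and 1.30116, and each of the 4 counting intervals held 1.3. In these outside sequences the late pair of libraries lay on 1 side of the early pair.

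At the read floor the picture was similar. The members nearest above it were comp1345_c0_seq2 and comp2290_c0_seq1, with means of 1011.5 and 1011.8 reads. The steady sequences nearest below it were comp3119_c0_seq1 and comp3119_c0_seq2, with means of 972.8 and 972.2 reads and ratios of 1.105 and 1.102. By mean reads, the share of steady sequences was 4.96% from 1000 to 2000 reads, 5.67% from 2000 to 5000 and 3.68% from 5000 up.

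**Figure D2:**
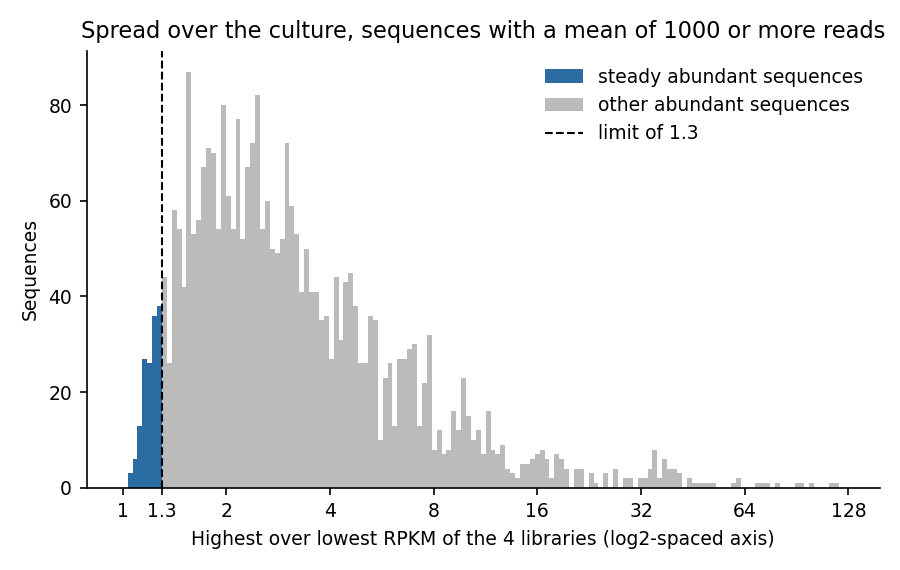
Number of abundant sequences by the ratio of their highest to their lowest RPKM over the 4 libraries, on a log2-spaced axis, with the 149 members in blue, the other 2836 in grey and the limit of 1.3 as a dashed line. The counts climb through the limit without a break and the median of the other abundant sequences is 2.81.

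The middle step was the one that the fewest abundant sequences crossed within the limit. Between 14 h and 45 h, 48.2% of the abundant sequences stayed within 1.3-fold, and between 57 h and 88 h 85.8% did. Between 45 h and 57 h, 18.8% did. A set of 1014 sequences, or 34% of the abundant ones, was within 1.3-fold at the first and the last step and past it at the middle one. There were 263 sequences within 1.3-fold at each of the 3 steps, and 114 of them drifted past the limit over the whole culture. The members are what remained.

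The medians of the members at each step were small by the choice of members and are given for description. Their median log2 ratio was -0.05 for 45 h over 14 h, 0.05 for 57 h over 45 h, -0.08 for 88 h over 57 h and -0.05 for 88 h over 14 h. In the other abundant sequences the same medians were -0.01, -0.60, -0.09 and -0.70. Over all 13975 sequences averaging 10 or more reads they were -0.01, -0.71, -0.07 and -0.79. The rule keeps every member within 1.3-fold, so the members stood apart at the middle step, where the median sequence took a smaller share. The summed reads of the other abundant sequences did not fall there. They were 103.7% of the stated total at 45 h and 107.6% at 57 h. The counts of all sequences sum to more than the stated totals, so these are not strict shares.

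**Figure D3:**
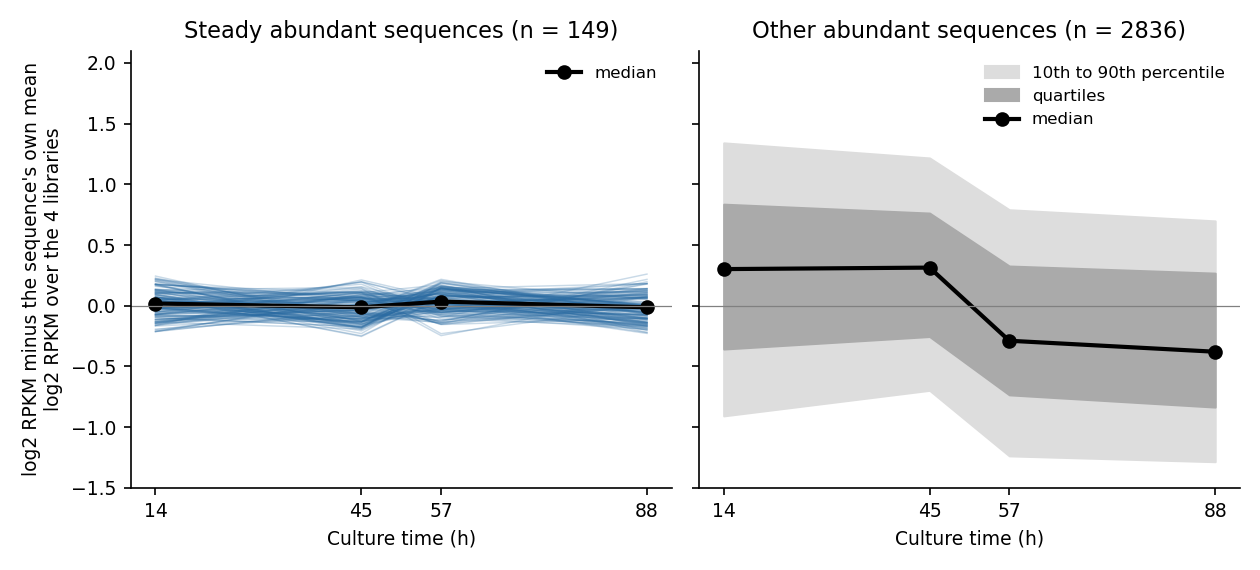
Log2 RPKM of each sequence minus its own mean log2 RPKM over the 4 libraries, against culture time. On the left each thin line is 1 of the 149 members with their median in black, and on the right the grey bands are the quartiles and the 10th to 90th percentiles of the other 2836 abundant sequences. Member deviations stay between -0.25 and 0.26, while the median of the other sequences is -0.29 at 57 h and 0.31 at 45 h.

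The small movements left within the limit had no common shape. The highest library was 14 h for 40 members, 45 h for 30, 57 h for 42 and 88 h for 37. The lowest was 14 h for 30, 45 h for 48, 57 h for 19 and 88 h for 52. In 30 members both late libraries lay above both early ones, with a median log2 ratio of late to early means of 0.17. In another 30 both lay below, with a median of -0.17. In the remaining 89, or 59.7%, the early and late values were interleaved. Among all abundant sequences, 29.7% had both late libraries above both early ones and 56.6% had both below. The rule limited these differences, so the contrast is a description.

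A small number of members moved 1 way at every step, 9 of them upward and 13 downward. Of all abundant sequences, 5.76% and 22.3% did so. The shortest member, comp1265_c0_seq3 of 745 bases, belonged to the first kind, with 102.1, 115.6, 127.6 and 130.4 RPKM at 14, 45, 57 and 88 h. The longest member, comp666_c0_seq1 of 14127 bases, had 39.1, 37.0, 45.8 and 46.1 RPKM, with the early pair of libraries below the late pair. Both met the limit, at ratios of 1.277 (1.172 to 1.393) and 1.245 (1.205 to 1.288).

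Constant RPKM did not mean constant rank. The ranks come from the RPKM values that chose the members, and a nearly constant RPKM in a library whose median is lower gives a better rank, so the ranks are a description. Ranked by RPKM among all 14905 sequences, the median member stood at 2513, 2563, 1611 and 1551 in time order. The other abundant sequences kept a median rank between 1752.5 and 1895.5 throughout. At 57 h, 145 of the 149 members ranked better than at 45 h, against 1366 of the 2836 other abundant sequences, or 97.3% against 48.2%. Over all abundant sequences the figure was 50.6%. At 88 h against 57 h the members that ranked better numbered 74, or 49.7%, against 44.4% of all abundant sequences.

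The sequence comp507_c0_seq1 shows the scale of it. Its 45.3 RPKM held rank 2603 at 45 h, and 45.3 RPKM held rank 1664 at 57 h and 1573 at 88 h. The members with the 3 highest levels did not share this course. In time order comp170_c0_seq1 stood at ranks 109, 112, 127 and 127, comp122_c0_seq1 at 155, 121, 168 and 184, and comp248_c0_seq1 at 167, 151, 203 and 208, each lower in the order in both late libraries. The next in level, comp236_c0_seq1, stood at 379, 481, 390 and 401. It ranked better in both late libraries than at 45 h, but not than at 14 h. The 6 members that did not rank better at 57 h than at 14 h had mean levels between 124.1 and 853.4 RPKM, and 50.5% of all abundant sequences did not rank better there. Over all sequences the median RPKM was 10.3, 11.2, 5.38 and 5.52 at 14, 45, 57 and 88 h. The median member was 4.53, 4.11, 8.73 and 8.34 times those values, and the median of the other abundant sequences 5.92, 5.56, 7.29 and 6.72 times.

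**Figure D4:**
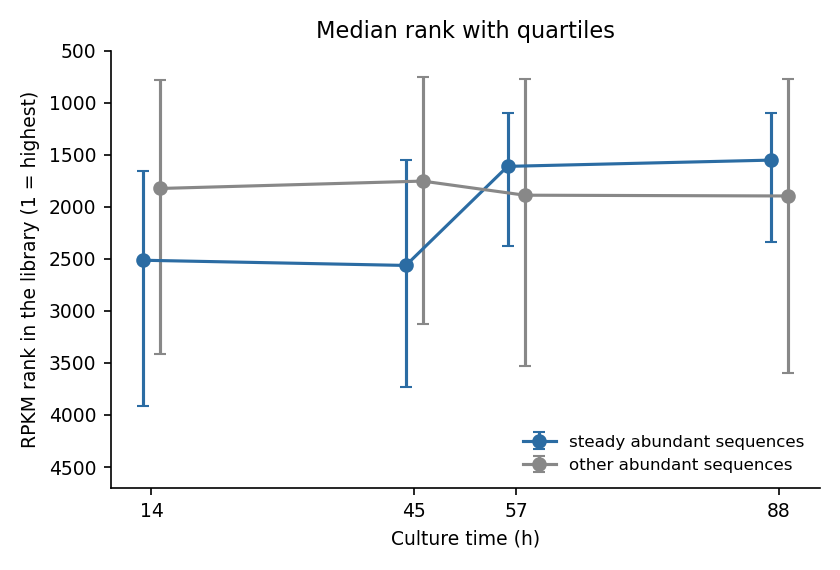
Rank by RPKM within each library (1 is the highest of 14905) against culture time, as medians with quartiles, for the 149 members in blue and the other 2836 abundant sequences in grey. The member median moves up to 1611 at 57 h, against 2563 at 45 h, while the grey median stays between 1752.5 and 1895.5.

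Which sequences counted as steady therefore depended on the scale. TMM, a scaling built on the assumption that the typical sequence keeps its level, gave 173 steady abundant sequences in 109 components, or 5.8% of the abundant ones, and 0 of them were among the 149. Median-of-ratios factors, built on the same idea, gave 166, or 5.56%, again with 0 shared. That there is no overlap follows from arithmetic. Against the deposited totals, TMM moved the 88 h level over the 14 h level by a factor of 1.71, more than the 1.69 that is the square of the limit, so no sequence could pass on both scales.

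On the TMM scale the 149 members were higher late in the culture, which follows from the rule together with the shift of scale. All 149 had both late libraries above both early ones, where 46.7% of all abundant sequences did, and nothing is read from that count. Their median log2 ratio of 57 h over 45 h was 0.75. The members' ratios of highest to lowest lay between 1.397 and 2.218, and 35 of the 149 reached 2-fold, where 64.3% of all abundant sequences did. The 173 sequences that were steady with TMM had median RPKM values of 53.5, 49.8, 33.0 and 29.6 at 14, 45, 57 and 88 h. On the deposited scale these were lower late. Read counts give shares of a library, so the files do not tell which scale comes nearer to molecules per cell.

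Milder changes of scale kept much of the set. Dividing by the sum of counts on sequences gave 151 steady sequences (5.06%), of which 124 were members, or 83.2% of the members and 82.1% of the new list. Leaving the 10 most abundant sequences out of the total gave 146 steady sequences (4.89%). Of these 85 were members, or 57% of the members and 58.2% of that list.

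The members together took a nearly constant share of each library, which follows from the rule. Their reads came to 4.19, 4.22, 4.38 and 4.12% of the stated total at the successive times. With only the most-read member of each component, the shares were 2.60, 2.66, 2.74 and 2.52%. The counts of all sequences sum to more than the stated totals, so these figures are not strict shares. Against the reads counted on sequences the members held 3.11, 3.09, 3.39 and 3.24%.

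Length was not part of the rule, and the members were long. Their median was 3998 bases, with quartiles of 2633 and 6790, against 3125.5 bases, with quartiles of 1976.8 and 4666, in the other abundant sequences. With 1 sequence per component on each side the medians were 3461.5 bases for 88 members and 2800 for 1647 other abundant sequences. The sides were picked separately from 1724 components, so some components count in both. The steady share was 2.96% for abundant sequences shorter than 2000 bases, 4.39% from 2000 to 4000, 6.16% from 4000 to 8000 and 12.6% from 8000 bases up. The last band holds 20 members among 159 sequences, several of which share a component. No test over sequences was made, because sequences of 1 component are not independent.

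The sequences steady on the TMM scale, described above, had a median of 3991 bases. Whether length had a part in the result was not tested.

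Components of 1 sequence supplied 26 members, or 17.4%, against 853, or 30.1%, of the other abundant sequences. Of the 88 components, 48 held 1 member, 40 held 2 or more with 101 members between them, and 11 held 3 or more. The 98 pairs of members within a component included 46 whose counts differed by at most 5% in every library. Such pairs are near copies in their counts, and the files do not say how a read that matches several sequences was counted. Counted by component, the members number 88.

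In 61 of the 88 components every abundant sequence was a member, which holds by definition where the member is the only one. Of the 54 components with several abundant sequences, 27 held only members among them. The other 27 held 57 abundant sequences past the limit, with a median ratio of 1.96. Of these 57, 20 had a ratio of at most 1.5 and 28 of at least 2. When the reads of all sequences of a component were added up, 70 of the 88 components stayed within 1.3-fold. These include the 26 components of 1 sequence, where the sum is the member itself. The highest ratios of a component sum were 3.61 in comp135, 2.09 in comp898 and 2.08 in comp404. In each of these the members and sequences far past the limit differ in their c part. Next was comp681 at 1.71, where all abundant sequences share part c0. A steady member therefore did not always stand for a steady component as grouped here, which need not be 1 gene.

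The component comp151, 1 of 2 with the most members, had 6 members among its 8 abundant sequences. Its longest sequences, comp151_c0_seq1 of 13502 bases and comp151_c0_seq2 of 13290 bases, were near copies in level. The first had 59.9, 68.6, 67.7 and 68.9 RPKM at 14, 45, 57 and 88 h and the second 60.7, 68.6, 68.4 and 70.0. Both were lowest at 14 h and level from 45 h on. The sequences comp151_c0_seq3 and comp151_c0_seq4 had the same course, with ratios of 1.233 and 1.235. A pair of shorter members ran the other way, comp151_c0_seq6 at 48.1, 42.6, 37.2 and 38.6 RPKM and comp151_c0_seq8 at 48.1, 44.6, 40.3 and 37.9. The component also held sequences past the limit, 1 of them of 3643 bases with 52.9, 64.4, 25.2 and 18.9 RPKM. Steady and lowered sequences thus shared this component.

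The component comp507 also had 6 members among 8 abundant sequences. Beside the most level member stood comp507_c0_seq2, of 7088 bases, with 43.9, 44.0, 50.9 and 51.5 RPKM. The 4 sequences comp507_c2_seq1 to comp507_c2_seq4 lay between 25.97 and 32.03 RPKM, each with its lowest value at 45 h and its highest at 88 h. The remaining pair, of 3793 and 3017 bases, was past the limit. The longer of these, comp507_c0_seq3, had 52.7, 41.5, 11.8 and 12.4 RPKM in time order, a log2 ratio of 57 h over 45 h of -1.81. In comp507_c0_seq1 the same log2 ratio was -0.001.

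**Figure D5:**
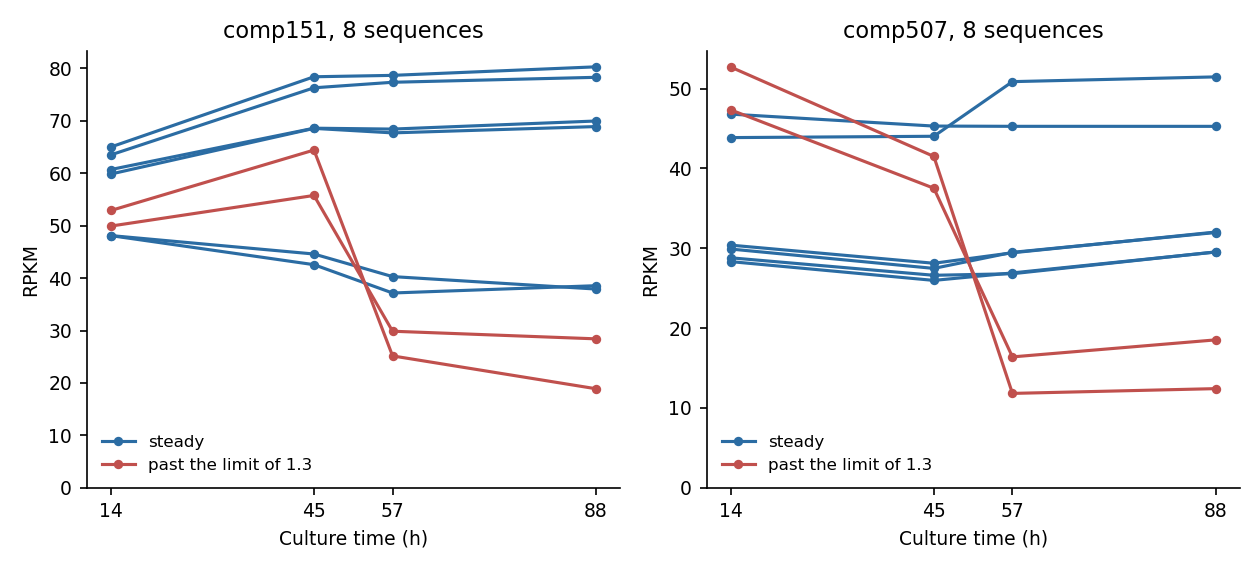
RPKM against culture time for the 8 abundant sequences of comp151 (left) and of comp507 (right), with the 6 members of each in blue and the 2 sequences past the limit in red. Points are single libraries. The red lines are lower at 57 h than at 45 h in both components, and the blue lines stay within 1.3-fold.

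Such mixtures were found in 7 of the 88 components, where a member stood beside an abundant sequence at least 2-fold apart between 57 h and 45 h. Only the 54 components with several abundant sequences could show one. The share of mixed components among all components with abundant sequences is not given, so the 7 are not read as many or few. In comp135, comp404 and comp898 each such sequence had another identifier part (c0, c1 or c2) than the members. The examples below were chosen after their values were seen. The member comp135_c1_seq1, of 7560 bases, had 27.9, 26.0, 25.7 and 24.7 RPKM, while comp135_c0_seq1, of 2760 bases, had 162.4, 172.5, 14.8 and 14.1. The second sequence had the widest ratio of all abundant partners of members, 12.2. The opposite direction was seen in comp1374, where comp1374_c0_seq1, of 5538 bases, had 54.9, 66.1, 59.5 and 51.4 RPKM and comp1374_c0_seq3, of 936 bases, had 50.7, 66.8, 235.7 and 197.7. The early values of the pair were close and the late ones were not.

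The component comp681 held 2 members and 8 abundant sequences at least 2-fold higher at 57 h than at 45 h. Its members comp681_c0_seq1 and comp681_c0_seq2, of 13814 and 13647 bases, had 20.4, 18.8, 21.7 and 21.6 RPKM and 20.4, 18.8, 21.8 and 21.9 RPKM. The 8 had 12685 to 13084 bases, with 2.80 to 3.27 RPKM at 45 h and 11.8 to 12.8 at 57 h. Being so alike, they are not taken as 8 separate cases. The remaining abundant sequence, comp681_c0_seq11 of 4929 bases, went the other way, with 54.7, 52.4, 32.1 and 34.6 RPKM. In comp404, of 22 sequences, the single member comp404_c1_seq1 had 49.6, 49.8, 49.3 and 63.1 RPKM. Of the 10 other abundant sequences, the 4 of part c2 were at least 2-fold lower at 57 h than at 45 h. The 6 of part c0 were lowest at 14 h and highest at 88 h, with ratios of highest to lowest between 2.71 and 4.94. Among these, comp404_c0_seq9 had 56.7, 136.9, 250.3 and 280.0 RPKM. The identifiers place the member in a part of its own, c1.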

How the data were processed

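Each library was deposited as a table of 14905 sequences with, per the file headers, the read count of each sequence, the library's total reads, the sequence length and an RPKM value. RPKM as the authors deposited it equalled the count scaled by length and stated total, with a largest absolute difference of 3.8e-11. Alignment used BWA, per the submitters' processing notes. The sources used here give neither reference nor assembler, strandedness or the handling of reads that match more than 1 sequence. Counts summed to between 15376509 and 16829055 reads per library, more than the stated totals.

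The members, lists and tables were chosen with earlier results of these data known. Log2 ratios used reads plus a pseudocount of 0.5 over the stated total. Intervals are 95% exact conditional binomial, exact binomial or Poisson. They treat reads as independent and are too narrow where PCR copies or shared reads occur. No test between times was made, with 1 library each. Named sequences were the 4 highest in level, the 4 most level, those nearest to either limit, the longest, the shortest and the components with the most members. TMM came from edgeR 4.0.16 under R 4.3.3. The rule and the interval were run on simulated independent Poisson counts, the model that the intervals assume. That run says nothing of shared reads or near copies. Intervals were computed with scipy 1.17.1 and tables with pandas 2.3.3 in Python 3.11.15.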

Additional observations from a re-analysis of the deposited data

How the results depend on the processing

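No paired analysis was possible because each culture time has 1 library. The number of steady abundant sequences, reported as 149 in 88 components and 4.99% of abundant sequences, followed the limit and the floor. A ratio limit of 1.2 gave 65 in 43 components (2.18%), and one of 1.5 gave 345 in 202 (11.6%). A floor of 500 mean reads gave 233 in 140 components, a floor of 2000 gave 76 in 40, and no floor gave 513 in 286 (3.48%). With the upper bound of the counting interval at most 1.3 there were 84 in 52 components (2.81%), and with the lower bound 7.04% of abundant sequences passed. With 1 sequence per component there were 77. Leaving out 1 library in turn gave 222 to 376 sequences in 128 to 238 components, or 7% to 13.4%. The count was 346 without the 14 h library, 376 without the 45 h library and 235 without the 88 h library, each over 1.5 times the reported one. Fewer libraries must agree there. Under the 4 other scalings the counts stayed within 1.5 times the reported one, although TMM and median-of-ratios shared 0 sequences with the members. The members' median log2 ratios moved with the scale. For 57 h over 45 h, 0.05 as reported, the value was 0.75 with TMM, 0.75 with median-of-ratios, 0.13 with the sum of counts and 0.18 without the 10 most abundant sequences in the total. For 88 h over 14 h, -0.05 as reported, it was 0.72, 0.73, 0.030 and 0.14 in the same order, so its sign depended on the scale. For 88 h over 57 h, -0.08 as reported, it was -0.026, -0.0093, -0.060 and -0.050. For 45 h over 14 h, -0.05 as reported, it was -0.029, -0.042, -0.064 and -0.012. A pseudocount of 5 reads moved each of the 4 medians by less than the counting error of the members' summed reads. Of 145 alternative values of the named sequences' ratios of highest to lowest, 89 lay outside the counting interval reported. Depth limits the members near the floor of 1000 reads most, where the counting interval of a ratio is wide against the limit.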
